A study of Mus musculus with 23 samples.

Results

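Potassium channel subunit genes were examined in the hypothalamus of obese mice given celastrol or vehicle. They were chosen by symbol: every gene whose symbol starts with Kcn and that had a probe set naming that gene alone, leaving out the vessel gene Kcnj8 and the choroid plexus gene Kcnj13, with the probe set of highest mean where a gene had more than 1. This gave 87 genes of the 18702 measured on 23 expression arrays, 1 array per sample. All mice, treated and control, were male db/db animals, which lack a functional leptin receptor, were 8 weeks old and had been on chow for 2 weeks. Celastrol, a compound of the thunder god vine known to reduce feeding in obesity, or vehicle was injected intraperitoneally. DMSO, the vehicle, is listed at 25 µl per day for celastrol and vehicle mice alike, and hypothalamic RNA was taken at 6 h, 1 day or 4 days. A celastrol dose of 250 µg/kg is stated for the 6 h mice; for the later times the label gives only volumes, so that dose is not given here. The groups were celastrol at 6 h (n = 3), vehicle at 6 h (n = 4), celastrol and vehicle at 1 day (n = 4 each) and celastrol and vehicle at 4 days (n = 4 each). Arrays of a group are labelled biological replicates without naming animals or pools, so the p-values measure the spread between these samples.

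Potassium channels carry potassium out of the cell near rest, which sets the resting potential, ends action potentials and limits how often a neuron fires. Voltage-gated subunits open with depolarisation, calcium-activated ones after calcium entry, inward rectifiers near the resting potential, and 2-pore subunits carry leak current; auxiliary and silent subunits alter the traffic and gating of the pore-forming ones. In hypothalamic feeding circuits the ATP-sensitive channel with Kcnj11 as its pore links metabolic state to firing, Kv7 channels carry the M current, and G protein-gated rectifiers respond to peptides and transmitters.

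By role the 87 genes comprised 15 pore-forming subunits of Kv1 to Kv4, 3 of Kv7, 7 of the ether-a-go-go family, 9 silent modifiers, 13 auxiliary subunits of voltage-gated channels, 12 calcium- or sodium-activated channel genes, 13 inward rectifiers and 13 2-pore leak channels. The remaining 2, Kcnmb4os1 and Kcnmb4os2, are long non-coding RNA genes that match the symbol rule; the other 85 encode proteins. All values are log2 expression values as deposited and all differences are on that log2 scale; those of the 87 genes lay between 5.91 and 12.48. No filter on level was applied, so all 87 genes were tested; 20 of them lay in the lowest tercile of all genes by mean value, 36 in the middle tercile and 31 in the highest tercile. Within groups the arrays agreed closely: the median within-group SD was 0.0948 over the 87 genes and 0.0942 over all genes, with Kcnip1 the steadiest at 0.0518 and Kcnj14 the most variable at 0.291. Kcnj14 was so variable that its vehicle arrays at 4 days alone spanned 6.68 to 7.66. Over all 23 arrays the SD was 0.266 for Kcnj14, 0.185 for Kcne4, 0.181 for Kcnk15 and 0.177 for Kcna7, the 4 most variable of the 87 genes.

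Array medians over all genes lay between 8.60 and 8.67. Of 19 hypothalamic marker genes, 18 were measured, and 14 of these lay in the highest tercile of all genes; of 13 neuronal markers, 13 did. Prl, the pituitary hormone prolactin, exceeded 9 in 4 vehicle arrays (6 h replicates 2 and 4, 1 day replicate 1, 4 days replicate 2) and in none of the celastrol arrays. Gh, the pituitary growth hormone, stood at 11.56 to 12.70 in these 4 arrays. It was also high in celastrol replicate 3 at 6 h (11.61) and replicate 2 at 1 day (10.79), so pituitary transcripts were not confined to vehicle arrays. The mean of the 6 measured of 7 pituitary markers ranged from 7.65 to 8.54 with celastrol and 6.96 to 9.64 with vehicle at 6 h, from 7.01 to 7.92 and 6.91 to 8.71 at 1 day, and from 7.17 to 7.62 and 7.32 to 9.27 at 4 days, celastrol first each time. The mean of the 9 choroid plexus markers, which include Kcne2 itself, had its highest group mean in vehicle mice at 4 days (7.72, arrays 7.55 to 7.84). In whole tissue, fewer cells of a type and less RNA per cell cannot be told apart.

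Celastrol against vehicle asked whether the drug altered channel transcripts in animals without leptin signalling. None of the 87 genes passed the adjusted threshold of 0.05 at 6 h (background 0% of all genes), at 1 day (0.016%) or at 4 days (0%), by limma with Benjamini-Hochberg adjustment over all genes. None passed for the mean of the 3 differences either (0%), nor for a celastrol effect that differed between times (0.0588%). At an unadjusted p under 0.05 there were 16 genes at 6 h, 9 higher and 7 lower with celastrol (18.4%, against 14.8% of all genes). There were 12 at 1 day, 7 higher and 5 lower (13.8%, against 12.5%), and 5 at 4 days, 1 higher and 4 lower (5.75%, against 7.29%). For the mean effect there were 12 (13.8%, against 13.5%) and for the effect between times 10 (11.5%, against 13.0%). These shares lay near those of all genes. By direction, 8.56% of all genes were higher and 6.22% lower at 6 h at that unadjusted p, 8.31% and 4.19% at 1 day, and 2.73% and 4.57% at 4 days.

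The differences were also small. The median over the 87 genes was 0.02 at 6 h, 0.005 at 1 day and -0.006 at 4 days, beside 0.007, 0.009 and -0.001 over all genes. Single genes ranged from -0.25 to 0.22 at 6 h, from -0.22 to 0.28 at 1 day and from -0.19 to 0.21 at 4 days. The 95% confidence interval of the median gene, before adjustment, extended 0.147 on each side at 6 h and 0.136 at 1 day and 4 days. Smaller differences could not be told from 0 for such a gene even before adjustment. The adjusted threshold is stricter, and the largest of the differences above did not pass it either. Celastrol and vehicle arrays did not overlap for 13 of the 87 genes at 6 h, 6 above and 7 below, where this held for 10.3% of all genes (5.97% above, 4.29% below). The same held for 12 at 1 day, 6 above and 6 below, against 11.0% of all genes (6.44% above, 4.56% below), and for 1 at 4 days, Kcng4, which lay below, against 3.5% (1.87% above, 1.63% below). At any p, 51 of the 87 means were higher with celastrol at 6 h, 45 at 1 day and 40 at 4 days, where 52.8%, 54.1% and 49.7% of all genes were higher and 47.2%, 45.9% and 50.3% lower.

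Markers of neighbouring tissue and of other cells differed in mean in the same comparisons, with none called in any of them. With celastrol 9 of 10 thalamus markers had lower means at each time (medians -0.09, -0.24 and -0.19 at 6 h, 1 day and 4 days). The mean of the thalamus list was 9.46 to 9.63 with celastrol and 9.59 to 10.03 with vehicle at 6 h, 9.31 to 9.49 with celastrol and 9.46 to 9.98 with vehicle at 1 day, and 9.33 to 9.50 with celastrol and 9.32 to 10.07 with vehicle at 4 days. Of 9 oligodendrocyte markers 8 were lower at 6 h and at 1 day and 5 at 4 days (medians -0.07, -0.08 and -0.02), and of 18 hypothalamus markers 12, 16 and 15 were higher (medians 0.03, 0.10 and 0.09). Of 6 leukocyte markers 6 were higher at 1 day (median 0.16), 7 of 8 endothelial markers were lower at 1 day (-0.15), 11 of 13 mural and fibroblast markers were lower at 4 days (-0.17), and 6 of 6 pituitary markers were lower at 4 days (-0.50). The oligodendrocyte mean was 10.92 to 11.13 with celastrol and 11.07 to 11.21 with vehicle at 6 h, and 11.05 to 11.14 with celastrol and 11.14 to 11.27 with vehicle at 1 day. The leukocyte mean was 6.71 to 6.88 with celastrol and 6.59 to 6.72 with vehicle at 1 day, and the pituitary mean 7.17 to 7.62 with celastrol and 7.32 to 9.27 with vehicle at 4 days. With thalamus and striatum markers as a covariate 0 of the 87 channel genes passed at any time, and the differences of Kcnh4 were 0.21 at 6 h and 0.19 at 1 day, those of Kcnh7 -0.14 at both. With the pituitary mean or the choroid plexus mean as a covariate 0 passed as well. Since 0 also passed without a covariate, these counts cannot show the part of any list. The part of the other lists in the celastrol differences of the channel genes was not tested.

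**Figure D1:**
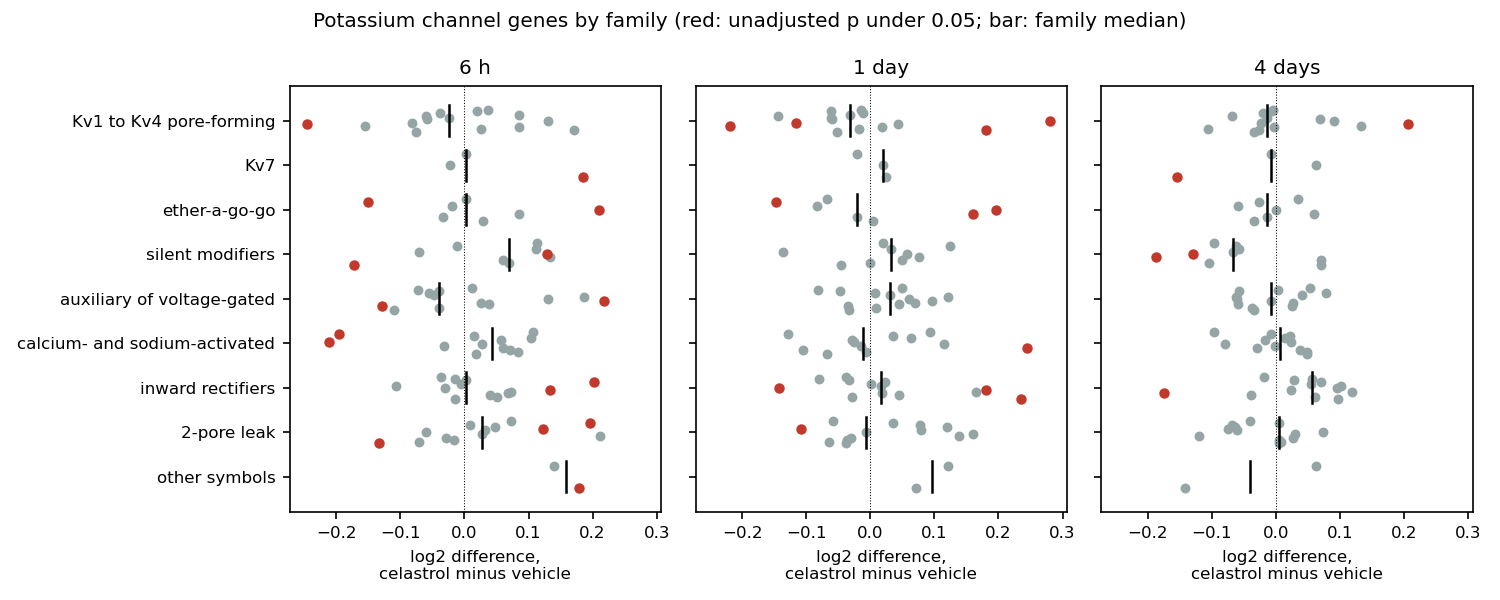
Log2 difference, celastrol minus vehicle, of each of the 87 genes (points) by family (rows) at 6 h, 1 day and 4 days; red points have an unadjusted p under 0.05 and the bar is the family median. Points of most families lie on both sides of 0, and the red points number 16, 12 and 5.

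Among the ether-a-go-go genes, Kcnh4, a brain subunit of the Elk type, came closest to the threshold. At 6 h its celastrol arrays stood at 8.41, 8.44 and 8.41 and its vehicle arrays at 8.18, 8.27, 8.12 and 8.26. At 1 day they stood at 8.41, 8.27, 8.22 and 8.25 with celastrol and at 8.19, 8.14, 8.06 and 7.98 with vehicle. At both times every celastrol array lay above every vehicle array, with differences of 0.21 (adjusted p = 0.175) and 0.20 (adjusted p = 0.191). At 4 days the 2 groups overlapped, at 8.31 to 8.45 with celastrol and 8.29 to 8.42 with vehicle. The mean difference over the 3 times was 0.14 ± 0.0315 (SE, adjusted p = 0.149).

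Kcnh7, a subunit of the Erg type, ran the other way. At 6 h it stood at 9.60, 9.77 and 9.75 with celastrol and at 9.85, 9.80, 9.92 and 9.87 with vehicle, and at 1 day at 9.79, 9.78, 9.84 and 9.63 with celastrol and 9.87, 9.92, 9.94 and 9.89 with vehicle. Each celastrol array lay below each vehicle array at these times, with a difference of -0.15 at both (adjusted p = 0.227 at 6 h and 0.239 at 1 day). At 4 days the 4 celastrol arrays, all near 9.79, lay within the vehicle range of 9.74 to 9.90. Besides Kcnh4 and Kcnh7, groups did not overlap at both 6 h and 1 day for Kcnj15, above, and Kcna4, below. The SD of log2 values over all genes within an array separated the same groups. It was 1.870 to 1.917 with celastrol and 1.922 to 1.943 with vehicle at 6 h. At 1 day it was 1.905 to 1.932 and 1.933 to 1.962, and at 4 days 1.880 to 1.943 and 1.886 to 1.907, celastrol first. Array spread and treatment cannot be told apart at 6 h and 1 day.

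Of the 15 Kv1 to Kv4 subunits, 7 had higher and 8 lower means with celastrol at 6 h, and 4 had higher and 11 lower means at 1 day and again at 4 days. Kcna4, the A-type subunit Kv1.4 of axons, stood at 8.65, 8.76, 8.79 and 8.72 with celastrol at 1 day and at 8.85, 9.12, 8.86 and 8.95 with vehicle. The groups did not overlap (difference -0.22, adjusted p = 0.231), and at 4 days the difference had the other sign, 0.13 (adjusted p = 0.726). Kcna7, a subunit known mainly from muscle, stood at 7.07, 7.10, 7.13 and 7.29 with celastrol at 1 day and at 6.78, 6.91, 7.03 and 6.76 with vehicle. Its difference of 0.28 was the largest among the 87 genes at that time (adjusted p = 0.206).

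Kcna5, the delayed rectifier Kv1.5, and Kcnq1, the Kv7 subunit of heart and epithelia, had the smallest p-values for an effect that differed between times. Kcna5 stood at 7.91, 7.92 and 7.97 with celastrol at 6 h and at 8.11, 8.02, 8.22 and 8.36 with vehicle. At 4 days it stood at 8.09, 8.24, 8.40 and 8.28 with celastrol and at 8.04, 8.02, 8.03 and 8.10 with vehicle. Its differences were -0.25 at 6 h (adjusted p = 0.182) and 0.21 at 4 days (adjusted p = 0.435), and the test between times gave an adjusted p of 0.108. Kcnq1 had the opposite signs, with 7.60, 7.68 and 7.52 against 7.41, 7.39, 7.36 and 7.51 at 6 h and 7.32, 7.35, 7.39 and 7.55 against 7.55, 7.50, 7.64 and 7.54 at 4 days, celastrol first. Its celastrol arrays at 6 h all lay above vehicle (difference 0.19, adjusted p = 0.190), while at 4 days the groups overlapped (-0.15, adjusted p = 0.465; between times, adjusted p = 0.118). The neuronal M-current subunits Kcnq3 and Kcnq5 had mean differences of 0.02 and -0.01.

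**Figure D2:**
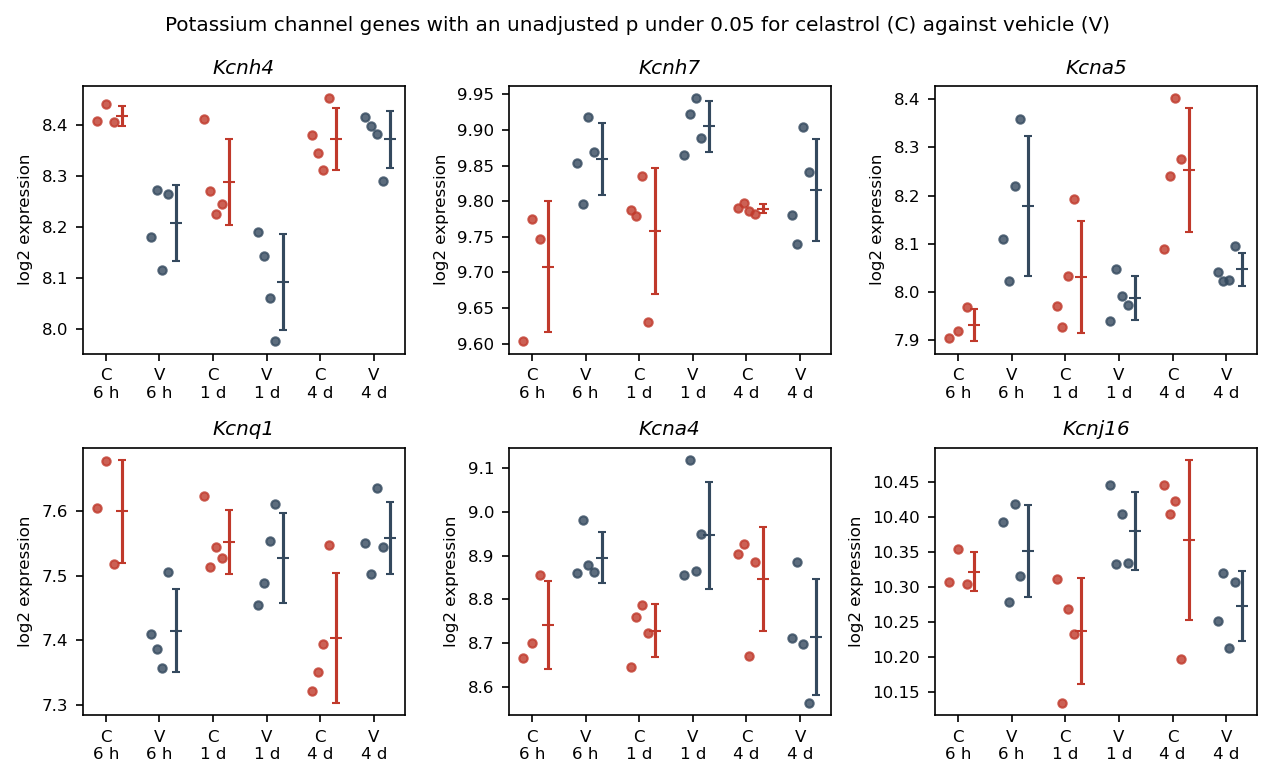
Log2 expression of 6 genes in each array (points), with the mean and SD of each group beside them, for celastrol (C, red) and vehicle (V, blue) at 6 h, 1 day and 4 days. The Kcnh4 celastrol arrays lie above and the Kcnh7 celastrol arrays below their vehicle arrays at 6 h and 1 day, and both overlap at 4 days.

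Silent modifiers do not form channels alone but join Kv2 subunits. At 6 h 6 of the 9 had higher means with celastrol, and at 4 days 7 of the 9 had lower ones (medians 0.07 and -0.07). Kcns1 stood at 7.97, 8.04 and 7.85 with celastrol at 6 h and at 7.83, 7.83, 7.80 and 7.84 with vehicle, so that the groups did not overlap (0.13, adjusted p = 0.263). At 4 days it stood at 7.92, 7.85, 7.87 and 8.03 with celastrol and at 8.07, 8.01, 8.07 and 8.04 with vehicle (-0.13, adjusted p = 0.503). Kcng4, the gene with separate groups at 4 days, stood at 7.74, 7.85, 7.74 and 7.64 with celastrol and at 7.90, 7.93, 7.98 and 7.92 with vehicle (-0.19, adjusted p = 0.676). Among the 13 auxiliary subunits the largest difference was that of Kcne2, a small membrane subunit that is also abundant in choroid plexus, at 6 h: 7.34, 7.24 and 7.18 with celastrol, against 6.98, 7.19, 6.85 and 7.12 with vehicle. Its groups overlapped (0.22, adjusted p = 0.221). The choroid plexus marker mean at 6 h was 7.52 to 7.57 with celastrol and 7.43 to 7.68 with vehicle; its part in the Kcne2 value was not tested.

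Of the 12 calcium- and sodium-activated channel genes, 9 had higher and 3 lower means with celastrol at 6 h. Kcnn2, the small-conductance subunit SK2 that shapes the afterhyperpolarisation, stood at 9.11, 9.31 and 9.42 with celastrol and at 9.56, 9.51, 9.42 and 9.47 with vehicle (-0.21, adjusted p = 0.186). The highest celastrol array lay just under the lowest vehicle array, and at 4 days the celastrol arrays lay at 9.40 to 9.56 and the vehicle arrays at 9.43 to 9.48. Kcnmb3, a beta subunit of the large-conductance BK channel, stood at 8.39, 8.46, 8.18 and 8.32 with celastrol at 1 day and at 8.07, 8.06, 8.16 and 8.10 with vehicle (0.25, adjusted p = 0.231). Kcnma1, the BK pore itself, had a mean difference of -0.000155, with a 95% interval from -0.07 to 0.07.

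Inward rectifiers were higher in 7 of 13, 8 of 13 and 10 of 13 genes at 6 h, 1 day and 4 days. Kcnj15, known from kidney, stood at 7.13, 7.22 and 7.12 with celastrol at 6 h and at 6.99, 7.01, 7.01 and 7.07 with vehicle. At 1 day it stood at 7.17, 7.04, 7.03 and 7.16 with celastrol and at 6.93, 6.90, 6.99 and 6.86 with vehicle (difference 0.18, adjusted p = 0.218). Its arrays separated in the same direction both times, and its mean difference was 0.11 (adjusted p = 0.202). Kcnj16, the astrocyte partner of Kcnj10, stood at 10.31, 10.13, 10.27 and 10.23 with celastrol at 1 day and at 10.45, 10.33, 10.40 and 10.33 with vehicle (-0.14, adjusted p = 0.283). Kcnj1, the renal secretory channel ROMK, stood at 6.66, 6.65, 6.52 and 6.52 with celastrol at 1 day and at 6.21, 6.44, 6.38 and 6.38 with vehicle (0.23, adjusted p = 0.277). At 4 days the largest rectifier difference was that of Kcnj12, a strong rectifier of the Kir2 group (-0.17, adjusted p = 0.623).

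For the 13 leak channels, means with celastrol were higher for 8, 6 and 7 genes at 6 h, 1 day and 4 days. Kcnk4, the mechanosensitive subunit TRAAK, had differences of 0.12 at 6 h, -0.11 at 1 day and -0.07 at 4 days (adjusted p = 0.296, 0.373 and 0.811). Kcnk1, a weakly conducting leak subunit found in neurons and astrocytes, stood at 10.20, 10.47 and 10.45 with celastrol at 6 h and at 10.51, 10.50, 10.53 and 10.50 with vehicle (-0.13, adjusted p = 0.268). The first of these celastrol arrays was far below the others. That array, replicate 1, was also the lowest celastrol array at 6 h for Kcnn2 and Kcnh7 and the highest for Kcne2. Its SD over all genes (1.87) and its oligodendrocyte marker mean (10.92) were the lowest of all arrays.

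Intervals were set on 30 measured subunits known for neuronal or glial currents. For the mean celastrol difference, every interval of these 30 lay between -0.19 (Kcnc2) and 0.19 (Kcnj4), which is 0.875-fold to 1.14-fold. These folds are of array values. The mean values of Kcnj2 (7.40), Kcnj4 (7.63), Kcnj11 (8.43) and Kcnj5 (8.56) lay under the array medians over all genes. Kcnj11, the pore of the ATP-sensitive channel, differed by 0.02 (95% interval -0.07 to 0.10). The G protein-gated rectifiers Kcnj3, Kcnj5, Kcnj6 and Kcnj9 differed by 0.02, -0.001, -0.01 and -0.03, each with an interval that includes 0. Kcnd2, an A-type subunit of dendrites, differed by -0.02, the acid-sensitive leak channels Kcnk3 and Kcnk9 by 0.02 and -0.01, and the glial channel Kcnj10 by 0.03. At an unadjusted p under 0.05 there were 2, Kcnh7 (-0.11, adjusted p = 0.176) and the strong rectifier Kcnj4 (0.10, adjusted p = 0.350).

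**Figure D3:**
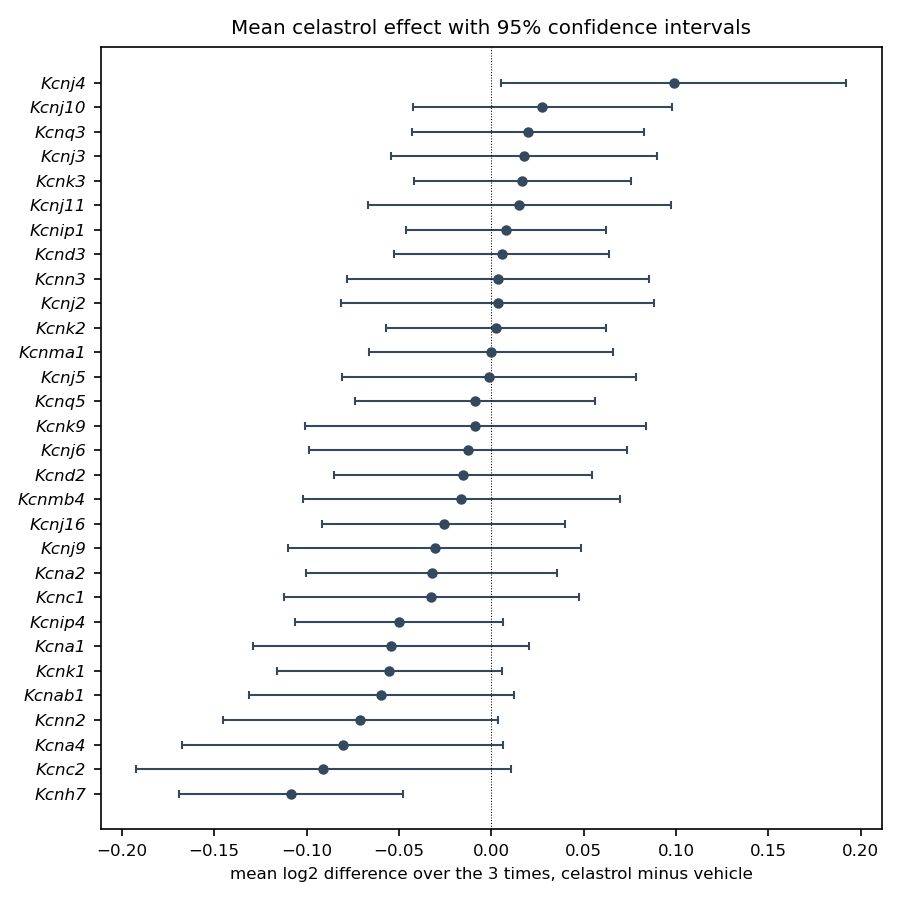
Mean log2 difference over the 3 times, celastrol minus vehicle (points), with 95% confidence intervals (bars), for the 30 measured subunits known for neuronal or glial currents. The intervals of Kcnh7 and Kcnj4 leave out 0 before adjustment, and the outermost bounds are -0.19 and 0.19.

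The direction of the celastrol difference was the same at all 3 times for 28 of the 87 genes. It was higher each time for 14 (16.1%, against 13.9% of all genes) and lower each time for 14 (16.1%, against 11.7%).

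Vehicle mice were then compared between times, which shows how the same transcripts varied without the drug. Between 1 day and 6 h no gene passed (0 of 87, background 0%, limma), and 9 had an unadjusted p under 0.05 (10.7% of all genes). Between 4 days and 6 h 3 of 87 passed, all higher at 4 days (3.45%, background 3.91%, of which 1.91% higher), and between 4 days and 1 day 11 of 87 passed, 10 higher and 1 lower at 4 days (12.6%, background 11.8%, made of 8.56% higher and 3.22% lower). The test over all 3 vehicle times passed for Kcns1, Kcnh4, Kcnk9, Kcne4 and Kcnk4, 5 of 87 (5.75%, background 8.83%). The share of channel genes was therefore near or under that of all genes in each comparison. The 4-day arrays enter both pairwise comparisons that gave calls, and the vehicle arrays also enter the celastrol comparisons of the same times.

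Kcns1, the silent Kv9.1 subunit, stood at 8.07, 8.01, 8.07 and 8.04 in vehicle mice at 4 days. It stood at 7.81, 7.74, 7.83 and 7.92 at 1 day and at 7.83, 7.83, 7.80 and 7.84 at 6 h. Every 4-day array lay above every earlier vehicle array. The rise was 1.16-fold against 1 day (0.22 ± 0.0476 SE, adjusted p = 0.00701) and 1.17-fold against 6 h (0.22, adjusted p = 0.0158).

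Kcnh4 had the smallest adjusted p among the 87 genes. It stood at 8.42, 8.40, 8.38 and 8.29 in vehicle mice at 4 days and at 8.19, 8.14, 8.06 and 7.98 at 1 day. The groups did not overlap, and the rise was 1.21-fold (0.28 ± 0.0532 SE, adjusted p = 0.00385). The vehicle arrays at 6 h stood at 8.12 to 8.27, and the 4-day difference from them did not pass (0.16, adjusted p = 0.0762). The vehicle arrays at 1 day that set this difference are also those of the celastrol comparison at 1 day.

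Kcnk9 and Kcnk4, both leak channels, rose between 6 h and 4 days. Kcnk9, the acid-sensitive TASK-3, stood at 11.83, 11.82, 11.91 and 11.81 at 4 days and at 11.65, 11.60, 11.23 and 11.68 at 6 h. All 4-day arrays lay above, and 1 array at 6 h, replicate 3, lay far below the other 3 (1.24-fold, difference 0.31, adjusted p = 0.0278). Without that array the difference was 0.20 (adjusted p = 0.0802). That array also had the lowest neuronal (11.789) and oligodendrocyte precursor (9.62) marker means and the highest microglia marker mean (9.15) of all arrays. The part of these lists in its Kcnk9 value was not tested. Kcnk4 stood at 9.31, 9.40, 9.33 and 9.37 at 4 days and at 9.18, 9.26, 9.10 and 9.11 at 6 h (1.14-fold, difference 0.19, adjusted p = 0.0386). Its groups did not overlap either, but leaving out any 1 vehicle array of 7 of the 8 compared took the adjusted p to between 0.0501 and 0.111. Next, and not past the threshold, were Kcnd3, an A-type subunit (0.15, adjusted p = 0.0700), and Kcng4 (0.28, adjusted p = 0.0738). In a fit of only the 2 groups compared, 0 of 87 passed.

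**Figure D4:**
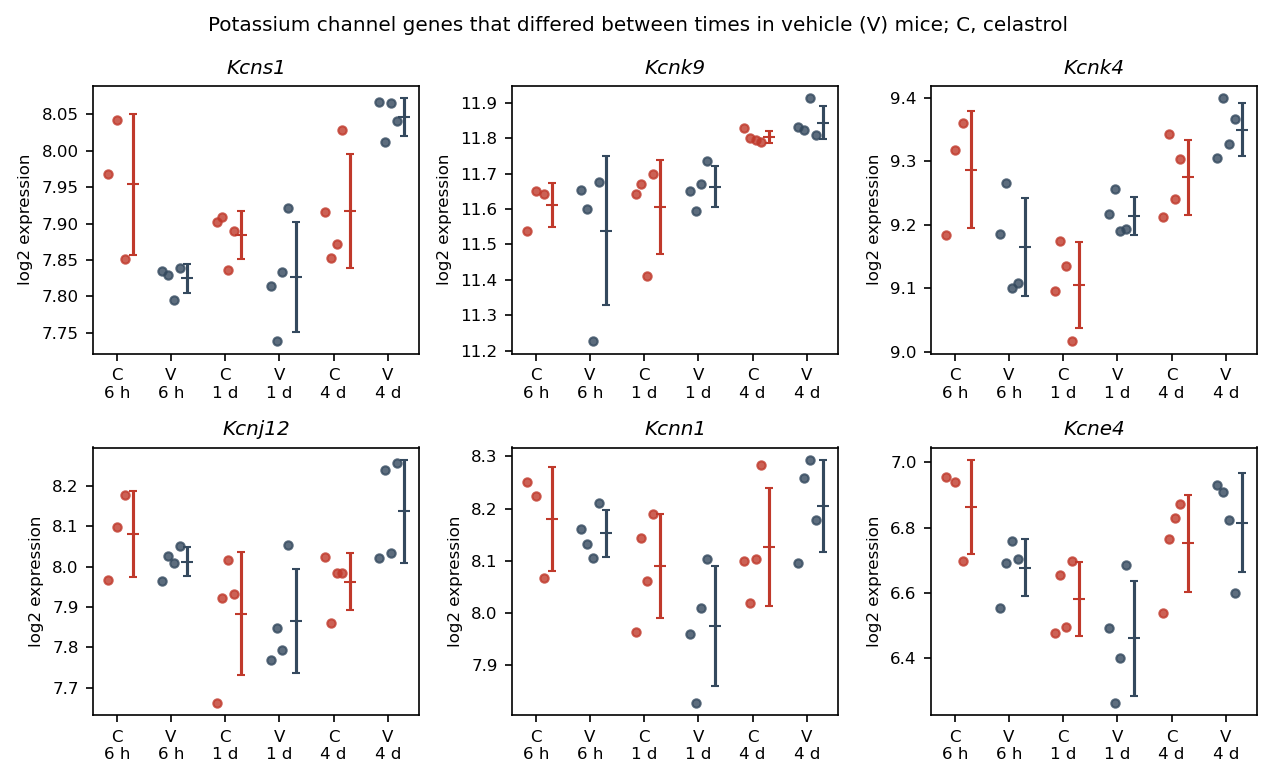
Log2 expression of 6 genes in each array (points), with the mean and SD of each group beside them, for celastrol (C, red) and vehicle (V, blue) at 6 h, 1 day and 4 days. All vehicle arrays at 4 days lie above those at 6 h for Kcns1, Kcnk9 and Kcnk4, while Kcnj12, Kcnn1 and Kcne4 overlap.

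The other 8 genes that rose between 1 day and 4 days in vehicle mice, and the gene that fell, came from several families. Kcne4, an auxiliary subunit that inhibits Kv1 and Kv7 channels, stood at 6.93, 6.91, 6.82 and 6.60 at 4 days and at 6.49, 6.26, 6.40 and 6.69 at 1 day (0.35, adjusted p = 0.0168). Kcnj12 stood at 8.02, 8.24, 8.03 and 8.26 at 4 days and at 7.77, 7.85, 7.79 and 8.05 at 1 day (0.27, adjusted p = 0.0234). In both genes 1 array at 1 day reached into the 4-day range. The calcium-activated channel genes Kcnn1 and Kcnn4, small- and intermediate-conductance subunits, rose by 0.23 and 0.25 with overlapping arrays (adjusted p = 0.0283 and 0.0346). Kcna7 rose by 0.30, Kcne2 by 0.23, the alkaline-sensitive leak channel Kcnk5 by 0.27 and Kcnj15 by 0.19, each with every 4-day array above every 1-day array (adjusted p = 0.0285, 0.0325, 0.0354 and 0.0377). Kcna4 fell: it stood at 8.71, 8.89, 8.70 and 8.56 at 4 days and at 8.85, 9.12, 8.86 and 8.95 at 1 day (-0.23, adjusted p = 0.0351), with 1 array of the 4-day group inside the 1-day range.

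The share that passed differed by level. Between 4 days and 1 day, 6 of the 20 channel genes in the lowest tercile of all genes by mean value passed, 5 of the 36 in the middle tercile and 0 of the 31 in the highest tercile. Over all genes 16.5%, 11.7% and 7.17% of these terciles passed. The median difference was 0.14, 0.04 and -0.05 for the channel genes and 0.12, 0.04 and -0.02 for all genes. The spread of all genes within an array moved with the same comparison: its SD was 1.89 to 1.91 in vehicle mice at 4 days and 1.93 to 1.96 at 1 day. With that SD as a covariate, 0 of the 87 genes and 0% of all genes passed in this comparison. It was also 0 for 4 days against 6 h and for the test over all vehicle times. The SD in vehicle mice at 6 h was 1.92 to 1.94. The SD at 4 days thus lay below that of both earlier times in every array, so the covariate follows the comparison itself. A loss of calls in this fit cannot tell array spread and time apart.

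**Figure D5:**
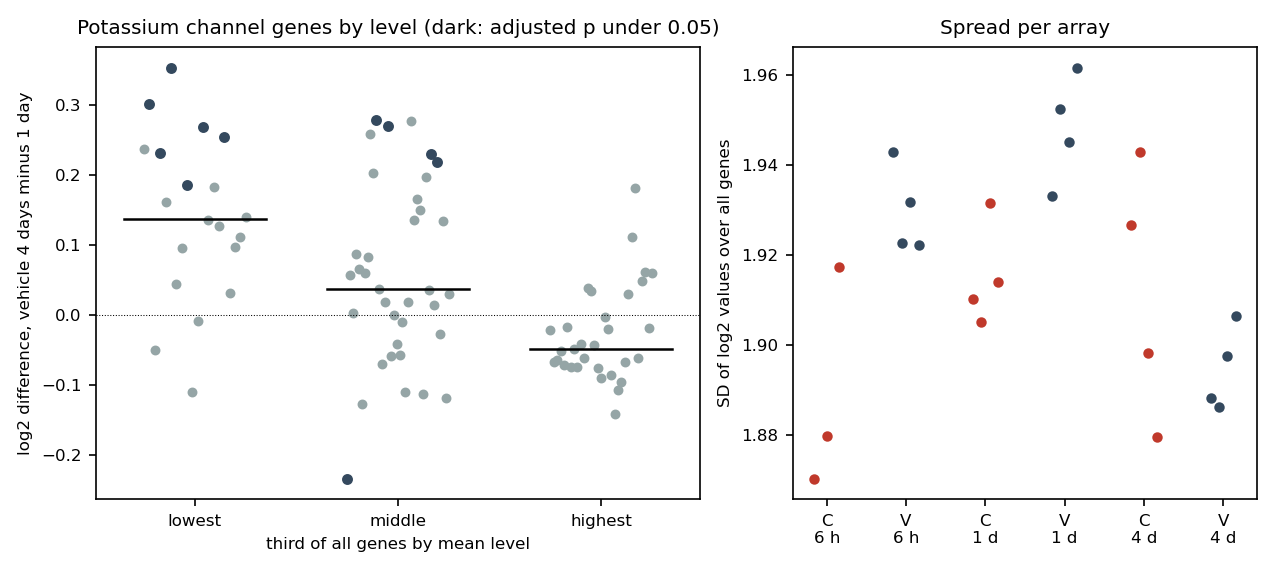
Left, log2 difference between vehicle mice at 4 days and 1 day for the 87 genes by tercile of all genes by mean value, with medians as bars; dark points passed the adjusted threshold. Right, SD of log2 values over all genes in each array for celastrol (C) and vehicle (V), which lay lower in vehicle mice at 4 days than at 1 day.

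Markers of other cells moved in that comparison too. Of 13 mural cell and fibroblast markers 4 were called higher, of 9 choroid plexus markers 2 (Kcne2 is among the 9), of 6 leukocyte markers 2, of 7 tanycyte and ependymal markers 1 and of 7 striatal markers 1 (8.56% of all genes). Of 5 oligodendrocyte precursor markers 2 were called lower, and of 13 neuronal and 8 endothelial markers 1 each (3.22% of all genes). At any p, 12 of 13 mural and 7 of 9 choroid plexus markers were higher (60.7% of all genes). The same held for 6 of 7 tanycyte and ependymal and 6 of 6 pituitary markers. Lower were 9 of 9 oligodendrocyte, 6 of 8 astrocyte and 8 of 13 neuronal markers (39.3% of all genes). The mean of the mural list was 8.90 to 9.39 at 4 days and 8.80 to 9.04 at 1 day. The mean of the choroid plexus list was 7.55 to 7.84 at 4 days and 7.38 to 7.66 at 1 day. With the choroid plexus mean, taken without Kcne2 and Kcnj13, as a covariate, 4 of the 87 channel genes passed, namely Kcnh4, Kcns1, Kcne4 and Kcnj12. Without the 4 arrays high in Prl, 5 passed, namely Kcnh4, Kcns1, Kcnn4, Kcnk5 and Kcna4. With the pituitary mean as a covariate, 5 passed, namely Kcnh4, Kcns1, Kcne4, Kcnj12 and Kcna4. The part of the mural, leukocyte, tanycyte and precursor lists in the channel results was not tested.

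In celastrol mice none of the 87 genes passed between any of the times by limma (0.0321% of all genes for 1 day against 6 h, 0.0749% for 4 days against 6 h, 0.353% for 4 days against 1 day, 0.246% over all 3 times). Closest was Kcna5, at 8.09, 8.24, 8.40 and 8.28 at 4 days and 7.91, 7.92 and 7.97 at 6 h, with no overlap (0.32, adjusted p = 0.0884). Kcnab3, a beta subunit of Kv1 channels, stood at 9.17, 9.32, 9.09 and 9.19 at 4 days and 8.88, 8.98 and 9.01 at 6 h, again with no overlap (0.24, adjusted p = 0.102). Kcnk9 had 11.83, 11.80, 11.79 and 11.79 in celastrol mice at 4 days and 11.54, 11.65 and 11.64 at 6 h, a difference of 0.19 in the direction of the vehicle mice (adjusted p = 0.281).

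Other genes of potassium channel complexes and of their control were taken as a list of 41, of which 39 were measured. None passed in a celastrol comparison by limma; at an unadjusted p under 0.05 there were 4 at 6 h (10.3%, against 14.8% of all genes), 2 at 1 day (5.13%, against 12.5%) and 2 at 4 days (5.13%, against 7.29%). The regulator Rgs7, which speeds the closing of G protein-gated channels, was lowest in p at 6 h (-0.18, adjusted p = 0.173). Between 4 days and 1 day in vehicle mice 4 of 39 passed (10.3%, against 11.8% of all genes): the striatal regulator Rgs9 rose (0.17, adjusted p = 0.0084), and Lgi1, a secreted ligand of the Kv1 complex, Snx27, a sorting protein of the G protein-gated rectifiers, and Rgs7 fell (-0.18, -0.16 and -0.14). Between 4 days and 6 h 5 passed (12.8%, against 3.91% of all genes). Rgs9 and the BK auxiliary subunits Lrrc52 and Lrrc26 rose (0.15, 0.35 and 0.26, adjusted p = 0.0362, 0.0386 and 0.0422). Rgs7 and Lgi1 fell (-0.21 and -0.20, adjusted p = 0.0158 and 0.0395). The arrays of Lrrc26 and Lgi1 overlapped between these times. The vehicle means of Lrrc52 (6.78 at 6 h, 7.13 at 4 days) and Lrrc26 (7.64 and 7.90) lay under the array medians over all genes. The sulfonylurea receptor Abcc8, partner of Kcnj11, was among the 39 and did not pass in any comparison.

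Promoter windows are shown for Kcns1, Kcnh4 and Kcnk4, 3 genes of the test over vehicle times that have an entry in the RefSeq promoter table (build GRCm38.p6). Each is the 250 bases before the annotated start, written 5′ to 3′ on the gene's strand, with capitals marking the GC box, GGGCGG on either strand (CCGCCC when read on the other). Kcns1 lies at chr2:164171114-164171363, Kcnh4 at chr11:100759779-100760028 and Kcnk4 at chr19:6934516-6934765, all on the minus strand.
Kcns1: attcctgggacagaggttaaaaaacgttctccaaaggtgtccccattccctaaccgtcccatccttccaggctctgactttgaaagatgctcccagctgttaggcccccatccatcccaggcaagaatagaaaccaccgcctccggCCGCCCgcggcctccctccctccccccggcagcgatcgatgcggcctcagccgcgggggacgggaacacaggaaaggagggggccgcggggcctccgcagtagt
Kcnh4: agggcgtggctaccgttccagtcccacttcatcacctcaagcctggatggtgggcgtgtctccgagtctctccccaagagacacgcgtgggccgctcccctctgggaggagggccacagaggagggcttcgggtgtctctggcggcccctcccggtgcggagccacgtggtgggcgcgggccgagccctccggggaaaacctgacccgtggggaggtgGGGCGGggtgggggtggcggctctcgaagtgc
Kcnk4: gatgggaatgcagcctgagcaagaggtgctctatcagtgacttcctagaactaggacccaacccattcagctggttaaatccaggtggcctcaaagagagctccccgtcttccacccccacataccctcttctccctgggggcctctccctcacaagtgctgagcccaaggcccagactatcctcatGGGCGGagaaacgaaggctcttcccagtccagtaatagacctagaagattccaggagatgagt
Each window holds 1 GC box, and GC content was 63.2% for Kcns1, 70.8% for Kcnh4 and 54.8% for Kcnk4. Over all channel genes 66 matched the table, with 91 windows. A GC box was found in 42 of them (46.2%), against 32.7% of 32851 windows of all genes, and median GC content was 58.8% against 52.4%. The motif TATAAA was found in 2 windows (2.20%, against 12.4% of all), CCAAT in 28.6% (33.8% of all) and TGACGTCA, the cyclic AMP response element, in 0 (1.55% of all), each sought on both strands. These matches describe the letters of the windows and not binding.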

How the data were processed

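Hypothalamic RNA of 23 samples was measured on Affymetrix whole-transcript arrays. The authors deposited 1 log2 value per probe set and array, from RMA according to the submitters' processing notes; software, version and filters are not stated in the sources used. They were used as deposited. Probe sets were named through the platform annotation, with symbols updated by gene identifier: of 23492, 20228 named 1 gene, 1399 several and 1865 none. Single-gene probe sets gave 18702 genes, with the highest-mean probe set per gene. Kcnh8 and Kcnma1 had a second probe set, which passed in no comparison. No coordinates of probe sets are given, since no build was named.

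Tests used limma (version 3.58.1, R 4.3.3) and a model of 6 group means over all 23 arrays (17 residual and 5.42 prior degrees of freedom), eBayes with no trend, and p-values adjusted by Benjamini-Hochberg over all 18702 genes at 0.05. Called means an adjusted p under 0.05. Precision is limited by the small number of arrays. The procedure was tested on simulated data. No 2 arrays held identical values (correlations 0.990 to 0.998).

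The members, gene lists and alternatives were chosen with earlier results of these data known. Genes named per comparison are those past the threshold, those filling up to 10 by smallest p, the 3 largest differences each way, the 30 measured of the fixed subunits, the 10 most variable and the partner genes of smallest p. Kcng4 at 4 days and other counts of 5 or fewer genes were named after their values were seen. Alternatives were a robust variance trend, no lowest tercile of genes, quantile normalization, median centring, a replicate block, array weights, every probe set, covariates for thalamus and striatum or pituitary markers, only the groups compared, and each array left out. Added after the data were examined were omission of the 4 vehicle arrays whose Prl exceeded 9 and covariates for choroid plexus markers or the SD per array.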

Additional observations from a re-analysis of the deposited data

Results flagged for a closer look

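In groups of 4 arrays, 1 array stood apart from the other 3 in 8 of 150 groups examined over 30 genes (gap to the nearest array over the range above 0.829). Chance gives about 1 in 20, which is near that share. Kcnk9 in vehicle replicate 3 at 6 h was lowest at 11.23, against a nearest value of 11.60, and Kcnt2, a sodium-activated subunit, was highest in the same array at 9.84, against 9.51. The celastrol array replicate 4 at 4 days was highest for Kcnj1 (6.73, nearest 6.42) and Kcnn4 (7.78, nearest 7.58) and lowest for Kcnj16 (10.20, nearest 10.40). Kcna4 was highest in vehicle replicate 2 at 6 h (8.98, nearest 8.88) and lowest in celastrol replicate 3 at 4 days (8.67, nearest 8.88). Kcna6, a Kv1 subunit, was lowest in celastrol replicate 2 at 1 day (9.97, nearest 10.01).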

How the results depend on the processing

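Over 36 alternative settings and 131 named results of single genes and comparisons, no difference changed sign. Tests over several times have no sign, and leaving out an array outside a pairwise comparison leaves its difference unchanged, so part of this was fixed in advance. Among the repeats, a called result lost its call in 155 and an uncalled one gained a call in 34, while 4468 stayed the same. For celastrol at 6 h and 4 days, their mean and celastrol at 1 day against 6 h and 4 days against 1 day, 0 of 87 genes passed in every setting; at 1 day 3 passed with array weights (Kcnh4, Kcnj15 and Kcnmb3). For celastrol 4 days against 6 h 1 passed without the lowest tercile of genes (Kcna5). The celastrol effect between times gave 0 to 1 on leaving out an array, with Kcnq1 passing without celastrol replicate 4 at 4 days. Vehicle 4 days against 1 day (11) gave 5 without the lowest tercile, 2 with quantile normalization, 6 with median centring, 19 with array weights, 5 with the pituitary covariate, 5 without the arrays high in Prl, 4 with the choroid plexus covariate and 0 with the SD covariate. Leaving out an array gave 2 to 13, the lowest without vehicle replicate 2 at 1 day, and 5 without vehicle replicate 4 at 1 day or replicate 2 or 3 at 4 days. Vehicle 4 days against 6 h (3) gave 1 with array weights, 0 with only the groups compared, 1 with the choroid plexus covariate, 0 with the SD covariate and 1 to 4 on leaving out an array, with 1 without vehicle replicate 3 at 6 h or replicate 2 or 3 at 4 days. The vehicle test over all times (5) gave 2 with quantile normalization, 12 with array weights, 3 with only the groups compared, 2 with the choroid plexus covariate, 0 with the SD covariate and 2 to 7 on leaving out an array (2 without vehicle replicate 1 or 3 and 3 without replicate 2 at 4 days, 3 without vehicle replicate 2 at 1 day). With the replicate block it gave 6, vehicle 4 days against 1 day gave 10 and vehicle 4 days against 6 h gave 3. In each celastrol comparison 0 passed with that block. The labels give only a replicate number and state no pairing. Deviations of same-numbered arrays correlated at -0.08 to 0.19, and for 2 of 11 celastrol arrays the same-numbered vehicle array was the best match. Low correlations cannot show that same-numbered samples were handled apart. Kcnh4, 4 days against 1 day, passed in 35 of 36 settings (adjusted p = 0.439 with the SD covariate) and Kcns1 in 34 (0.100 with quantile normalization, 0.553 with the SD covariate). The cause of these shifts was not tested.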
